A study of Mus musculus with 24 samples.

Results

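Perineuronal nets and the looser matrix of the brain are built on long chains of hyaluronan, to which a small family of secreted proteins is attached. The 10 genes examined here encode 4 lecticans, which are chondroitin sulfate proteoglycans that bind hyaluronan (Acan, Bcan, Ncan and Vcan), 3 link proteins that fasten lecticans to hyaluronan (Hapln1, Hapln2 and Hapln4), 2 tenascins, which are glycoproteins that join lecticans to one another (Tnr and Tnc), and 1 of the enzymes that make hyaluronan (Has2). They were chosen by name, with earlier results of these data known. All 10 were found by their Ensembl identifier among the 55471 genes of the count table. Dense nets surround the cell bodies of parvalbumin interneurons and, in the hippocampus, of CA2 pyramidal neurons, whereas much of the diffuse matrix is secreted by astrocytes, oligodendrocyte precursors and oligodendrocytes as well as by neurons. In textbook accounts aggrecan, the product of Acan, marks nets most closely, the nets close critical periods of plasticity, and enriched housing or enzymatic digestion of chondroitin sulfate can loosen them.

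The hippocampus of 12 female mice, labelled as C57BL/6 and 3 to 6 months old, was profiled by RNA-seq, with 3 mice in each of 4 groups. CBP-ifKOs carry floxed alleles of Crebbp, the gene of the acetyltransferase CBP, together with the tamoxifen-inducible recombinase CaMKIIα-creERT2, and control littermates lack the recombinase. Mice of both genotypes received tamoxifen in 5 intragastric doses (20 mg/mL), and each genotype was housed either in a standard cage (SC) or for about a month in an enriched environment (EE) of large boxes with running wheels, tubes and toys. The CaMKIIα promoter drives recombination in forebrain excitatory neurons, so interneurons and glia keep CBP, and the recombined allele still yields an RNA for a truncated protein. Whole hippocampus was used, so fewer cells of a type and less RNA per cell cannot be told apart.

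The libraries held between 26874015 and 27971488 counts in control mice and between 28582210 and 37448388 in CBP-ifKOs. All counts of the CBP-ifKO libraries were even, whereas between 54.0% and 55.1% of the nonzero counts of control libraries were odd. If this evenness means that reads were counted in duplicate, which was not tested, the CBP-ifKO libraries held 14291105 to 18724194 counts, and the tests of the 10 genes and the numbers of genes called were therefore also computed with their counts halved. Crebbp, which checks the labels, lay between 69.6 and 81.9 CPM (counts scaled to a common library size) in the 6 control mice and between 44.5 and 51.6 CPM in the 6 CBP-ifKOs, with no overlap. One control mouse in EE, mouse 1, had 1129 CPM of Ttr, a choroid plexus gene, against 4.06 to 32.3 CPM in the other libraries. Without that mouse the same number of the 10 genes, 4, differed between genotypes over both housings.

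The regulatory sequence of the genes that differed between genotypes is shown first as the stretch next to each start of transcription. CBP also acts at enhancers, which are not shown. CBP is named after CREB, a factor that binds the cAMP response element (CRE). Each window runs from 250 bases before to 50 bases after a RefSeq transcription start on GRCm38.p6, and capitals mark matches to 4 short motifs on either strand. Acan is shown for chr7:79052976-79053275 (plus strand), Bcan for chr3:88000307-88000606 (minus strand), Ncan for chr8:70120795-70121094 (minus strand) and Tnr for chr1:159523519-159523818 (plus strand).
Acan: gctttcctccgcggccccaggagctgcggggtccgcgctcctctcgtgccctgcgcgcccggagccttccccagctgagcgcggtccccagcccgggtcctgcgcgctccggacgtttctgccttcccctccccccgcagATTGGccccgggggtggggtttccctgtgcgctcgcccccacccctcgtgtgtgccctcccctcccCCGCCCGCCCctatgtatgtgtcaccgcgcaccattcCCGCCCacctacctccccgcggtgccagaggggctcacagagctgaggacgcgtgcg
Bcan: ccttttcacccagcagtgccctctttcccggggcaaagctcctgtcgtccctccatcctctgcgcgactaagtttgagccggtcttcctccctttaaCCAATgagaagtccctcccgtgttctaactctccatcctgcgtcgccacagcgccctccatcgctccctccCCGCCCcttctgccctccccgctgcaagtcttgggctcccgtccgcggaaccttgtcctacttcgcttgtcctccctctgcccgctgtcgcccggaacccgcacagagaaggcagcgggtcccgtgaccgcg
Ncan: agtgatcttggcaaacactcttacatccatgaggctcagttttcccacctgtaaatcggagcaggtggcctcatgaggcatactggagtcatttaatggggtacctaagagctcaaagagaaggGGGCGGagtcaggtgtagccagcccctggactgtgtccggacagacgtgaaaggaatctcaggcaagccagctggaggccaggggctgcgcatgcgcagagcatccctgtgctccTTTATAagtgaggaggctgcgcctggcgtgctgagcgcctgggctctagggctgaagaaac
Tnr: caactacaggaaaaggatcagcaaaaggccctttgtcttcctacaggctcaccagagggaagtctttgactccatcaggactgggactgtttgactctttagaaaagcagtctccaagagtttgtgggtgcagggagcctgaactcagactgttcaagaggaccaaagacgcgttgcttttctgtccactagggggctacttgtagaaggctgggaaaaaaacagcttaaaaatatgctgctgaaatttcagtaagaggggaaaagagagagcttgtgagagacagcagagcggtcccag

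The 4 motifs were the short CRE motif TGACG, the GC box GGGCGG, the TATA box TATAAA and the CCAAT box CCAAT. The Acan window held 3 GC boxes, 2 of which share bases, and a CCAAT box, and 74% of its bases were G or C against a median of 52.7% over all 32851 promoter windows. A GC box and a CCAAT box were also found for Bcan, and a GC box and a TATA box for Ncan. None of the 4 motifs was found in the Tnr window. Windows existed for 8 of the 10 genes, and among these 5 held a GC box, 4 a CCAAT box, 2 a TATA box and 1, Hapln1, the short CRE motif. The shares over all windows were 35.7% for the GC box, 37.4% for the CCAAT box, 13.6% for the TATA box and 20.8% for the short CRE motif. The 4 genes that differed between genotypes thus had no motif of this search in common, and these matches are descriptions of the sequence only. Hapln4 and Has2 were not among the windows.

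The genes span a wide range of levels in the hippocampus, compared here in CPM per kilobase of exon so that length does not enter. In SC-housed control mice Bcan, which encodes brevican, was the highest at 65.4 ± 2.82 CPM per kb (SD, n = 3). Hapln4, the link protein Bral2, followed at 30.9 ± 1.55 and Ncan, which encodes neurocan, at 29.2 ± 1.39 CPM per kb, and the ranges of these 2 overlapped. Tnr, which encodes tenascin-R, was next at 16.2 ± 2.80 CPM per kb. Hapln2 (Bral1, found at nodes of Ranvier) at 6.79 ± 1.19 and Hapln1 (the link protein Crtl1) at 6.43 ± 0.937 CPM per kb overlapped as well. The low end was formed by Vcan (versican) at 1.40 ± 0.152, Tnc (tenascin-C) at 1.09 ± 0.0522 and Acan at 0.685 ± 0.0511 CPM per kb, whose ranges did not overlap with their neighbours in the order. Has2 was lowest at 0.0787 ± 0.0152 CPM per kb and rested on 7 to 13 counts per library in control mice and 4 to 20, or 2 to 10 once halved, in CBP-ifKOs. The best known net marker, Acan, was thus among the least abundant of the group in whole hippocampus, with 131 to 180 counts per library in control mice and 118 to 208, or 59 to 104 once halved, in CBP-ifKOs. The order of the means was the same in all 4 groups except that Tnc and Acan changed places in 1 of them, EE-housed controls.

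**Figure D1:**
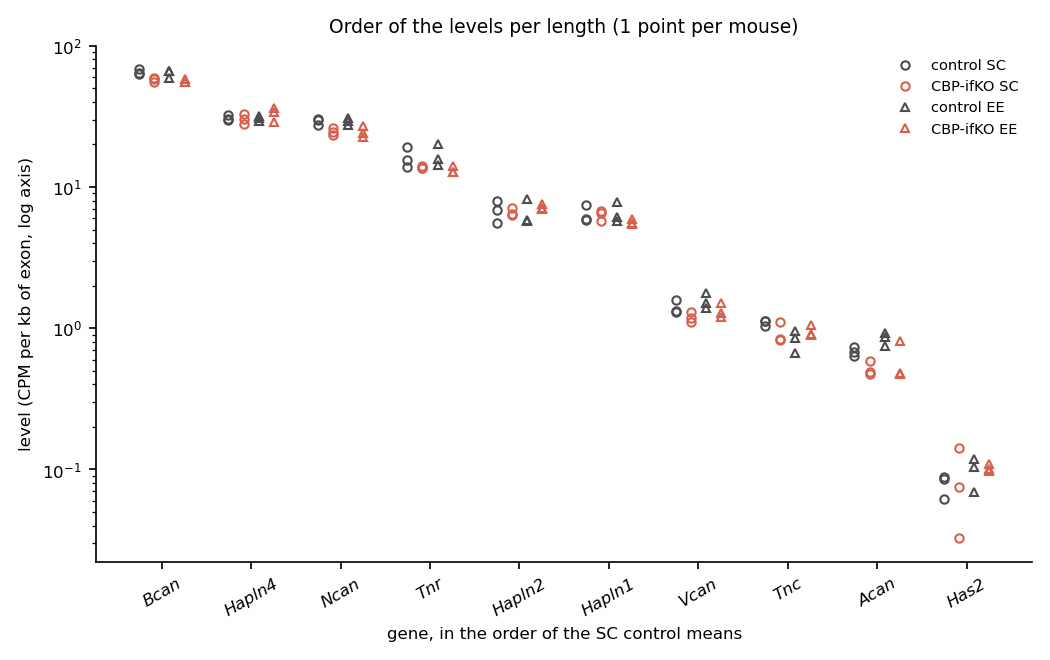
Level of each gene per length (CPM per kilobase of exon, log axis), 1 point per mouse, circles for SC and triangles for EE, grey for control mice and red for CBP-ifKOs, with genes in the order of the SC control means. The levels run from 65.4 CPM per kb for Bcan to 0.0787 for Has2 in SC-housed controls, and the order is shared by the groups apart from Tnc and Acan.

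The first question was whether loss of CBP in adult excitatory neurons goes with other levels of matrix genes. Averaged over both housings in the 12-mouse fit, 3 of the 4 lecticans (Ncan, Bcan and Acan) and 1 of the 2 tenascins (Tnr) were lower in CBP-ifKOs, by between 12% and 27.7%. None of the 3 link proteins passed the test, nor did Vcan, Tnc or Has2. The 4 genes, all of them lower, make up 4 of 10, against 16.9% of the 18251 genes tested that passed in either direction and 10.3% that passed as lower. Among the 12284 genes at 4 CPM or more on average, 13.3% passed as lower. Because the 10 genes were chosen with earlier results of these data known, these shares do not test the group. The median log2 fold change was -0.15 over the 10 genes and 0.003 over all genes tested. All 10 genes passed the expression filter in each comparison.

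**Figure D2:**
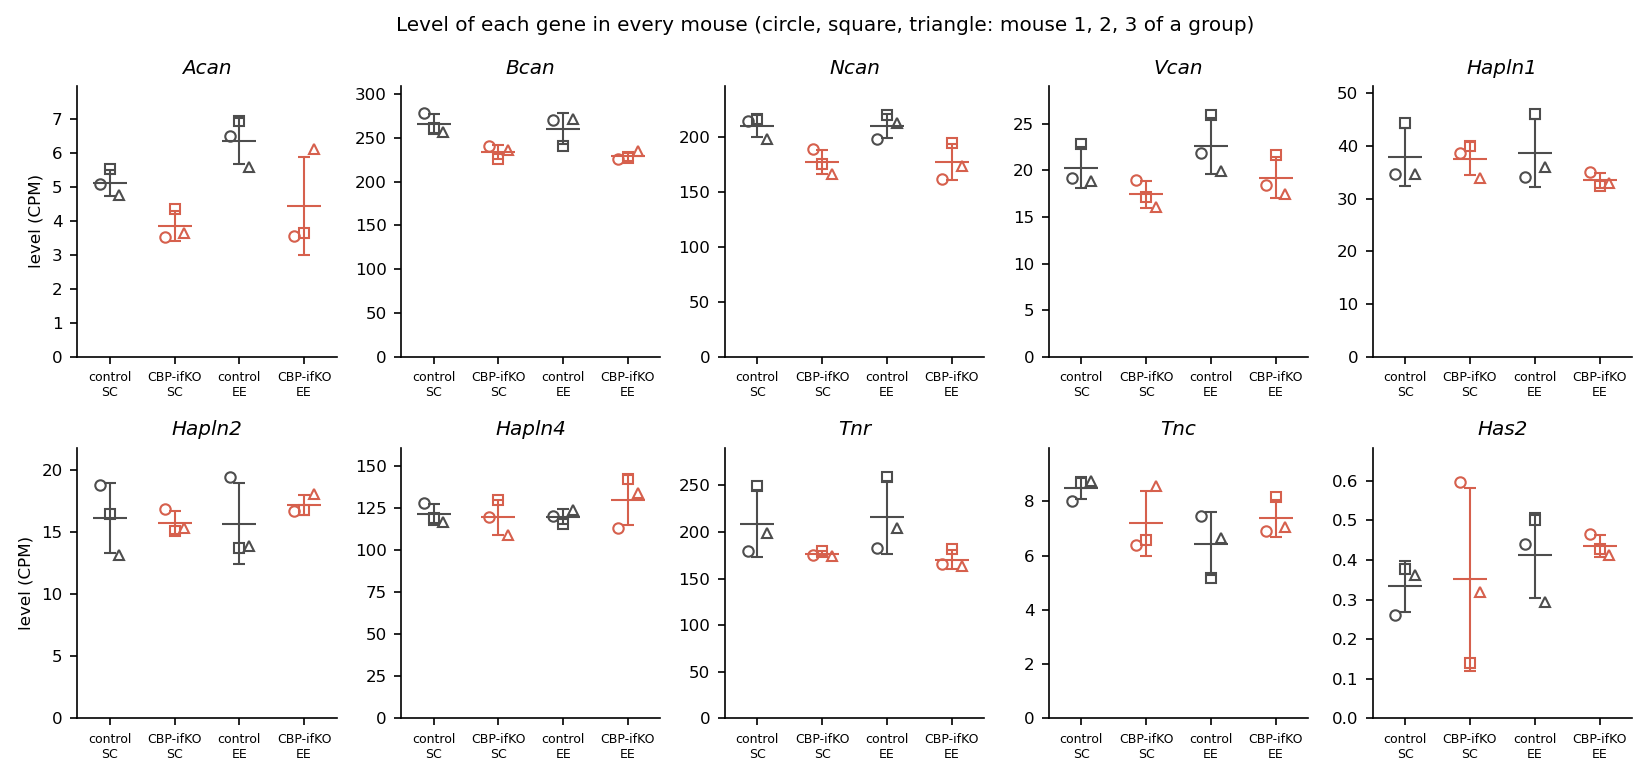
Level of each of the 10 genes (CPM, linear axes from 0) in every mouse of the 4 groups, where circles, squares and triangles are mice 1, 2 and 3 of a group and bars give the mean ± SD (n = 3). Grey is control and red is CBP-ifKO; the 6 CBP-ifKOs lie below the 6 control mice without overlap for Ncan.

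Ncan (chromosome 8 from 70093085 to 70120873, minus strand) encodes neurocan, a lectican of the diffuse brain matrix and of nets. Its levels were 214.5, 216.8 and 198.4 CPM in SC-housed control mice 1 to 3 and 198.6, 220.0 and 212.5 in EE-housed control mice. In CBP-ifKOs they were 189.0, 175.9 and 166.9 CPM in SC and 162.4, 195.1 and 174.1 in EE. Each of the 6 CBP-ifKOs was below each of the 6 control mice, a separation seen in the lower direction for 5.35% of the genes tested. The log2 fold change was -0.25 (SE 0.05), a decrease by 15.7%, with an adjusted p of 0.00306 in edgeR's quasi-likelihood test. This call held without any 1 of the 12 mice, with the lowest and highest estimates at -0.28 and -0.22.

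Bcan (chromosome 3 from 87987531 to 88000230, minus strand) encodes brevican, the most abundant lectican of the adult brain, which lies around synapses. Control mice had 278.5, 261.9 and 256.5 CPM in SC and 270.1, 240.9 and 271.3 CPM in EE, and CBP-ifKOs 241.1, 225.5 and 236.0 CPM in SC and 225.8, 226.6 and 234.8 in EE. The genotypes were separate within each housing, and over both housings they met only at 1 control mouse in EE (240.9 CPM) and 1 CBP-ifKO in SC (241.1 CPM). Bcan fell by 0.18 on the log2 scale (SE 0.04), or by 12%, with an adjusted p of 0.00464 from edgeR. Leaving out single mice kept it between -0.21 and -0.17, past the threshold each time.

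Acan (chromosome 7 from 79053483 to 79115099, plus strand) encodes aggrecan, the lectican by which nets are usually stained. It had 5.09, 5.52 and 4.76 CPM in the 3 control mice in SC and 6.50, 6.95 and 5.60 CPM in those in EE. The CBP-ifKOs had 3.53, 4.36 and 3.65 CPM in SC and 3.57, 3.63 and 6.11 CPM in EE. A single CBP-ifKO in EE, mouse 3, reached the range of the control mice, and the other 5 were below all of them. The difference was the largest of the 4 called, at -0.47 on the log2 scale (SE 0.13), a decrease by 27.7%, but was estimated less precisely (adjusted p = 0.0245, edgeR). It no longer passed without CBP-ifKO mouse 1 (adjusted p = 0.0601) or 3 (0.0574) in SC, or without CBP-ifKO mouse 1 (0.0571) or 2 (0.0609) in EE, or without both control mice numbered 2 (0.0796). Without CBP-ifKO mouse 3 in EE the log2 fold change was -0.62 (SE 0.10, adjusted p = 0.00137 from edgeR).

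Tnr (chromosome 1 from 159523769 to 159931729, plus strand) encodes tenascin-R, which cross-links lecticans and is made by oligodendrocytes, their precursors and some interneurons. Control mice showed 179.0, 248.9 and 198.9 CPM in SC and 182.9, 259.2 and 204.7 CPM in EE. CBP-ifKOs showed 175.0, 180.0 and 174.2 CPM in SC and 165.5, 181.7 and 163.1 CPM in EE. The CBP-ifKOs lay in a narrow band, whereas control mice spread widely and mouse 2 was highest in both housings. The log2 fold change of -0.29 (SE 0.08, adjusted p = 0.0220, edgeR) corresponds to a decrease by 18.4%. It became -0.14 (SE 0.05, adjusted p = 0.0384, edgeR) once both control mice numbered 2 were left out together, an alternative chosen after their values were seen. The call was lost without CBP-ifKO mouse 3 in EE (adjusted p = 0.0551, edgeR). An exon of Tnr overlaps Gm38039 on the opposite strand, and whether counting used strand is not given in the sources used here.

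Vcan (chromosome 13 from 89655312 to 89742509, minus strand) encodes versican, which in the adult brain is made by oligodendrocyte precursors and concentrates at nodes of Ranvier. Its levels were 19.2, 22.8 and 18.8 CPM in SC and 21.9, 25.9 and 20.0 CPM in EE in control mice, against 19.0, 17.2 and 16.1 CPM and 18.4, 21.7 and 17.5 CPM in CBP-ifKOs. The groups overlapped in both housings. The estimate of -0.23 (SE 0.08) was close to that of Ncan and did not pass (adjusted p = 0.0603, edgeR), although it passed in DESeq2 (adjusted p = 0.0408), with no filter on low counts (adjusted p = 0.00652) and with CBP-ifKO counts halved and all libraries thinned to the smallest (-0.30, adjusted p = 0.0134). It also passed without control mouse 3 in EE (adjusted p = 0.0380) or CBP-ifKO mouse 2 in EE (adjusted p = 0.0306, both edgeR). Without both control mice numbered 2 it was -0.12.

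**Figure D3:**
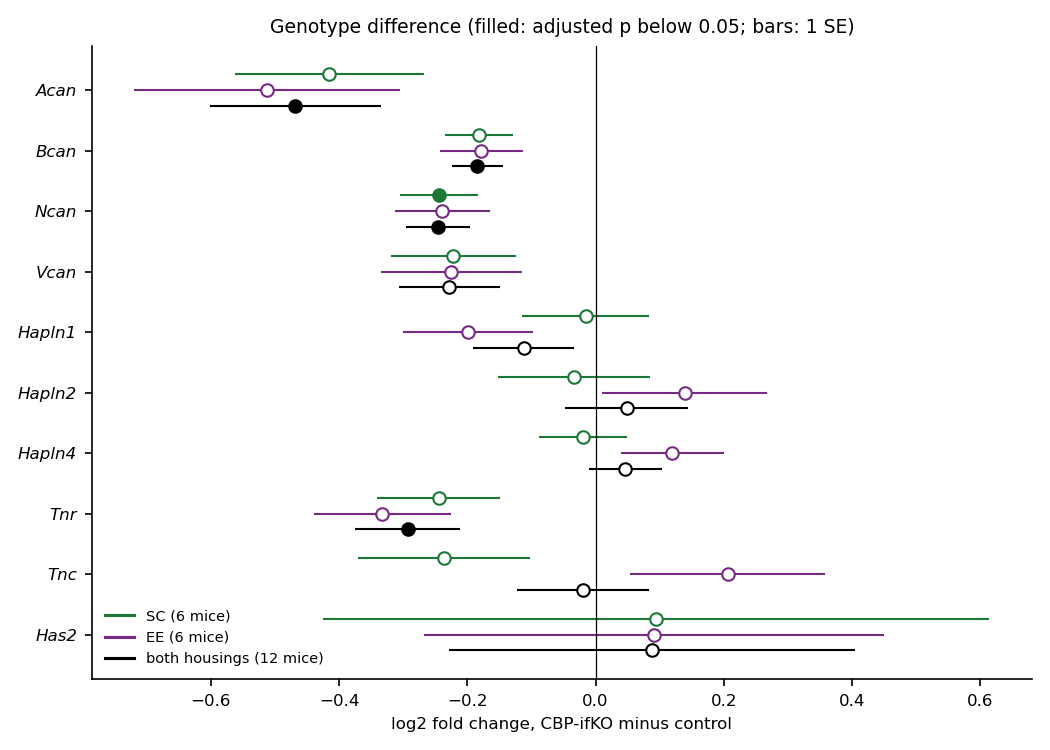
Log2 fold change between CBP-ifKOs and control mice for each gene with 1 SE on either side, in SC (green, 6 mice), in EE (purple, 6 mice) and averaged over both housings (black, 12 mice); filled points have an adjusted p below 0.05. The 4 lecticans and Tnr lie to the left of 0 in each fit, from -0.51 to -0.18, and no link protein is filled; Hapln1 lies at -0.20 in EE, farther from 0 than Bcan.

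None of the link proteins passed the test in any of the 3 genotype fits, and a difference between them and the lecticans was not tested. Hapln4 (chromosome 8 from 70083457 to 70090862, plus strand), which anchors brevican at perisynaptic nets, had 127.9, 118.9 and 116.4 CPM in SC controls and 120.0, 115.6 and 124.0 CPM in EE controls. Its levels in CBP-ifKOs were 119.7, 129.9 and 109.0 CPM in SC and 112.9, 141.9 and 133.8 CPM in EE, on both sides of the control values. The averaged log2 fold change of Hapln4 was 0.05 (SE 0.06, adjusted p = 0.643, edgeR). Hapln1 (chromosome 13 from 89539796 to 89611652, plus strand), the link protein tied most closely to the assembly of nets, lay between 34.1 and 46.0 CPM in control mice and between 32.4 and 40.0 CPM in CBP-ifKOs, with control mouse 2 highest in both housings. Its estimate was -0.11 (SE 0.08, adjusted p = 0.377, edgeR) and turned to 0.03 without both control mice numbered 2. In the single housings Hapln1 was at -0.02 (SE 0.10) in SC and -0.20 (SE 0.10, adjusted p = 0.311, edgeR) in EE, where Bcan was at -0.18. Hapln2 (chromosome 3 from 88021750 to 88027583, minus strand), a product of mature oligodendrocytes, lay between 13.1 and 19.4 CPM in control mice and between 15.1 and 18.0 CPM in CBP-ifKOs, with a log2 fold change of 0.05 (SE 0.10, adjusted p = 0.785, edgeR).

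Each lectican has a link protein gene as its neighbour on the chromosome, and the pairs allow a comparison within a locus. Ncan and Hapln4 lie 2222 bases apart with their ends facing. The log2 ratio of Ncan to Hapln4 lay between 0.75 and 0.87 in SC controls and between 0.73 and 0.93 in EE controls, against 0.44 to 0.66 and 0.38 to 0.52 in the CBP-ifKOs of the same housings. The ratio was thus lower in every CBP-ifKO than in every control mouse, which follows in part from the separation of Ncan itself. The other pairs did not separate in both housings in this way, although Bcan to Hapln2 was lower in every CBP-ifKO in EE and Vcan to Hapln1 in SC. The log2 ratio of Bcan to Hapln2 overlapped between genotypes in SC (3.89 to 4.29 in control mice, 3.84 to 3.95 in CBP-ifKOs), and that of Vcan to Hapln1 overlapped in EE (-0.85 to -0.64 against -0.93 to -0.58). The ratio of Acan to Hapln3 was higher in CBP-ifKOs than in control mice in SC (1.58 to 2.08 against 0.92 to 1.58, without overlap) and overlapped in EE. How often ratios of other gene pairs separate in this way was not computed. Of single genes, 13.8% in SC and 13.9% in EE separated as lower, and 12.1% in SC as higher. Over both housings 5.35% of single genes separated as lower. Bcan and Hapln2 lie 21519 bases apart on 1 strand, Vcan and Hapln1 43659 bases apart with ends facing, and in these pairs the link protein did not pass the test. Acan lies 2 bases from the end of Hapln3, which encodes a further link protein. Hapln3 fell by 0.53 on the log2 scale (SE 0.17, adjusted p = 0.0406, edgeR), from 1.74 ± 0.417 CPM in the 6 control mice to 1.20 ± 0.214 CPM in the 6 CBP-ifKOs (SD). By housing it was -0.88 in SC (adjusted p = 0.0703, edgeR) and -0.17 in EE (adjusted p = 0.732, edgeR), where its values overlapped between genotypes. Over both housings Acan and Hapln3 both passed, and in the Ncan and Bcan loci the lectican alone did.

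Tnc (chromosome 4 from 63959785 to 64047015, minus strand) encodes tenascin-C, which is abundant in development and kept in adults around neurogenic niches. It had 8.02, 8.69 and 8.75 CPM in SC controls, 6.40, 6.58 and 8.58 CPM in SC-housed CBP-ifKOs, 7.46, 5.17 and 6.66 CPM in EE controls and 6.92, 8.17 and 7.05 CPM in EE-housed CBP-ifKOs. The genotype estimates had opposite signs in the 2 housings, -0.24 (SE 0.13) in SC and 0.21 (SE 0.15) in EE, and neither passed (adjusted p = 0.351 and 0.504, edgeR). The SC estimate lay between -0.39 and -0.16 when single mice were left out, and the EE estimate dropped to 0.07 without control mouse 2. An exon of Tnc overlaps 8030451A03Rik on the opposite strand. Has2 (chromosome 15 from 56665627 to 56694539, minus strand), which makes high-mass hyaluronan and overlaps the antisense gene Has2os, lay between 0.14 and 0.60 CPM over the 12 mice. With so few counts its log2 fold change of 0.09 had an SE of 0.32, too wide to resolve a small difference.

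Within a single housing fewer of the genes passed. In the 6 SC-housed mice, with 17532 genes tested, 1 of the 10 genes was called, again as lower, where 5.52% of all genes were called and 4.02% were lower. That gene was Ncan, at -0.24 (SE 0.06, adjusted p = 0.0386, edgeR), and its call in SC was lost without control mouse 1 (adjusted p = 0.0918) or 3 (0.0542) or without CBP-ifKO mouse 1 (0.0501), 2 (0.144) or 3 (0.159). Estimates below 0 were obtained for 9 of the 10 genes in SC, against 50.3% of all genes, and those of Hapln1, Hapln2 and Hapln4 turned above 0 when some single mice were left out. Below 0 were 6 of the 10 in EE, against 47.0% of all genes, and 7 of the 10 over both housings, against 49.3%. An unadjusted p below 0.05 was reached by 5 of the 10 in SC, against 20.5% of all genes. In the 6 EE-housed mice, with 17625 genes, edgeR called none of the 10, where 4.57% of all genes were called. In EE 4 of them had an unadjusted p below 0.05, against 19.6% of all genes, DESeq2 called 2, Ncan and Tnr, and the smallest adjusted p in edgeR was 0.0985, for Ncan. The groups did not overlap for Acan, Bcan and Ncan in SC and for Bcan, Ncan and Tnr in EE, in each case with CBP-ifKOs lower, which was true of 13.8% and 13.9% of all genes tested.

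Side by side, the SC and EE estimates were -0.41 (SE 0.15) and -0.51 (SE 0.21) for Acan, -0.18 (SE 0.05) and -0.18 (SE 0.06) for Bcan, and -0.24 (SE 0.06) and -0.24 (SE 0.07) for Ncan. For Vcan they were -0.22 (SE 0.10) and -0.22 (SE 0.11), and for Tnr -0.24 (SE 0.10) and -0.33 (SE 0.11). Both genes rested in part on control mouse 2 of each housing, without which Vcan was at -0.13 in SC and -0.12 in EE and Tnr at -0.10 and -0.18. Without control mouse 1 of a housing Tnr passed in that housing (adjusted p = 0.0320 in SC and 0.0205 in EE, edgeR). No mouse is shared between the SC and the EE fit, and both are contained in the 12-mouse fit. The difference between the housings is tested by the interaction, in which none of the 10 genes passed. For the 4 lecticans and Tnr the interaction estimates lay between -0.11 for Acan (SE 0.27) and -0.004 for Ncan (SE 0.10).

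The second question was whether a month of enrichment moved the matrix genes. In control mice none of the 10 genes passed, and of all 18251 genes tested 0.0% did, with 768 at an unadjusted p below 0.05 and 13 called by DESeq2. The estimate farthest from 0 among the 10 was that of Tnc, which had 8.48 ± 0.406 CPM in SC and 6.43 ± 1.16 CPM in EE (SD, n = 3 per group). All 3 EE-housed controls were below all 3 SC-housed controls for Tnc, an order found in 4.91% of genes, and the log2 fold change was -0.40 (SE 0.15, unadjusted p = 0.0161, adjusted p = 0.999, edgeR). Without control mouse 2 in EE, which had the lowest value, it was -0.27. Acan had the opposite order, at 5.12 ± 0.381 CPM in SC and 6.35 ± 0.690 CPM in EE, with all 3 EE values above the SC values as for 4.2% of genes. Its log2 fold change with EE was 0.31 (SE 0.19, adjusted p = 0.999, edgeR). Ncan and Bcan were nearly level across housing in control mice, with log2 fold changes of 0.003 (SE 0.07) and -0.03 (SE 0.06).

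**Figure D4:**
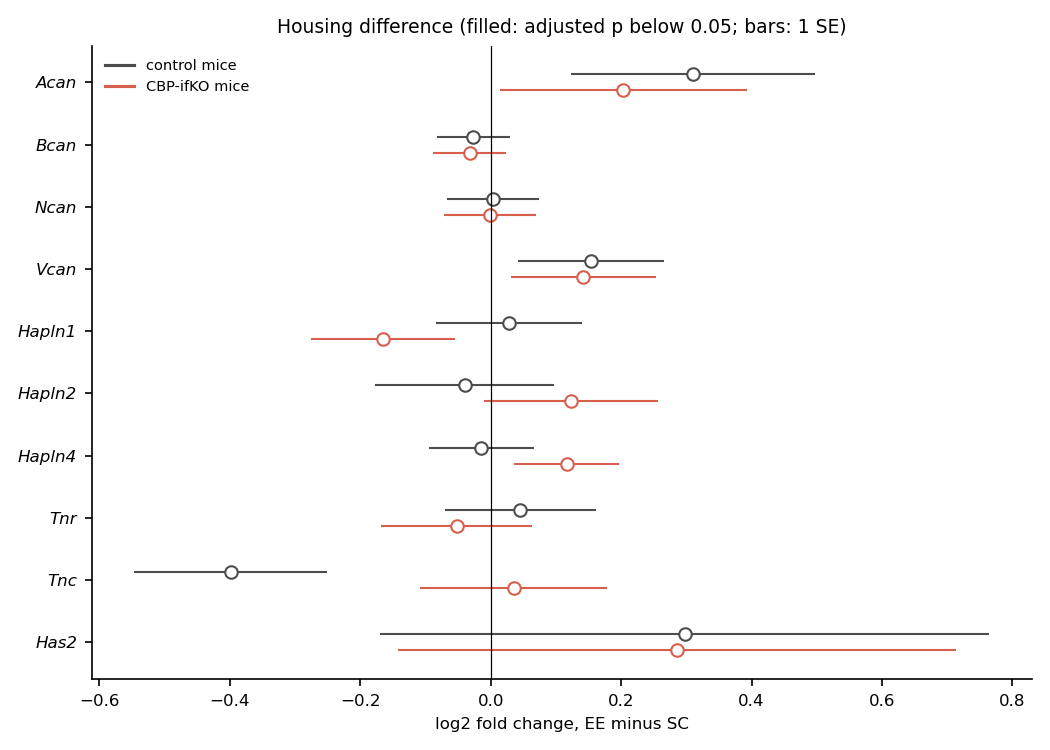
Log2 fold change between EE and SC for each gene with 1 SE on either side, in control mice (grey) and in CBP-ifKOs (red), from the 12-mouse fit; no point is filled because none had an adjusted p below 0.05. Tnc in control mice lies farthest from 0 at -0.40, and Acan and Vcan lie to the right of 0 in both genotypes.

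In CBP-ifKOs none of the 10 genes passed with housing, where 0.011% of all genes, 2 of 18251, did. The smallest adjusted p among the 10 was 0.710, for Hapln1 (log2 fold change -0.17, SE 0.11, edgeR). Tnc stood at 7.18 ± 1.21 CPM in SC and 7.38 ± 0.685 CPM in EE in CBP-ifKOs (SD, n = 3 per group), so its log2 difference was 0.04 (SE 0.14). The interaction for Tnc was 0.43 (SE 0.21, unadjusted p = 0.0515) and far from passing over all genes, where edgeR called 0.0% in the interaction, with 574 genes at an unadjusted p below 0.05 and 0 called by DESeq2. Acan stood at 3.85 ± 0.449 CPM in SC and 4.44 ± 1.45 CPM in EE in CBP-ifKOs, and its EE mean there rests on mouse 3, without which the log2 fold change with housing was -0.09. With housing and interaction tested together, 0.0712% of all genes were called and none of the 10. Tnc had the smallest unadjusted p of the 10 in that joint test, 0.0493 (adjusted p = 0.726, edgeR).

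The genes around the 10 in the same pathway were examined next, in lists of genes that bind, build, cut or receive matrix signals. The counts below stand against 10.3% of all genes called as lower and 6.64% as higher over both housings, and 13.3% called as lower at 4 CPM or more. These lists and those of cell type markers were also chosen with earlier results known, so the counts are descriptions only. Chondroitin sulfate chains are made by a series of transferases, and of 20 such genes tested 6 were lower in CBP-ifKOs over both housings and none was higher, with a list median of -0.12. Chpf, a chondroitin polymerizing factor, fell from 87.3 ± 7.37 to 70.5 ± 3.79 CPM (SD, n = 6 per genotype, log2 fold change -0.31, SE 0.06). The sulfotransferases Chst11, Ust, Chst15 and Chst7 fell by 0.20, 0.16, 0.18 and 0.48 on the log2 scale, and Csgalnact1, which starts the chain, by 0.18 (adjusted p between 0.00149 for Chpf and 0.0277 for Csgalnact1, edgeR).

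Of 20 other brain proteoglycans 7 were lower and none was higher, with a list median of -0.13. They included the syndecan Sdc3 (-0.22, SE 0.04), the testican Spock2 (-0.19, SE 0.04), the glypicans Gpc1 (-0.25, SE 0.06) and Gpc4 (-0.22, SE 0.06), the phosphatase proteoglycan Ptprz1 (-0.19, SE 0.05) and Cspg4 (-0.33, SE 0.08), the NG2 proteoglycan of oligodendrocyte precursors. Their adjusted p-values lay between 9.03e-04 for Sdc3 and 0.0122 for Gpc4 in the edgeR test.

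Among 13 genes of hyaluronan synthesis, turnover and binding, 2 were higher and 1, Hapln3, lower. Has1, a second hyaluronan synthase, rose from 0.514 ± 0.0771 CPM in control mice to 1.12 ± 0.362 CPM in CBP-ifKOs (log2 fold change 1.08, SE 0.20, adjusted p = 0.00184, edgeR). At this level few reads lie behind each value, and Has1 was not among the genes tested with halved counts or without single mice. Cemip, which is required for hyaluronan breakdown, rose by 0.21 (SE 0.06, adjusted p = 0.0318, edgeR). The median of this list was 0.10. Has1 was called in EE (1.34, adjusted p = 0.0178, edgeR) and was at 0.82 in SC (adjusted p = 0.205).

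Of 20 matrix proteases and their inhibitors 5 were lower and none was higher, with a median of -0.10. Adamts1, a protease of lecticans, fell from 26.4 ± 5.41 to 16.4 ± 1.61 CPM (SD, n = 6 per genotype, log2 fold change -0.69, SE 0.11, adjusted p = 6.06e-04 from edgeR). Mmp17, Plat (tissue plasminogen activator), Mmp15 and Mmp16 were lower by 0.39, 0.42, 0.28 and 0.22 on the log2 scale. The other 5 Adamts proteases tested, Adamts4, Adamts5, Adamts8, Adamts9 and Adamts15, did not pass, at -0.07, -0.16, 0.02, -0.05 and -0.12.

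Of 17 receptors and ligands of the matrix 7 were lower and none was higher, with a median of -0.20. Nptx2, an activity-regulated pentraxin that gathers at synapses on parvalbumin interneurons, showed the largest decrease of the 7 that passed, from 22.1 ± 6.12 to 10.9 ± 3.15 CPM (log2 fold change -1.02, SE 0.09, adjusted p = 1.92e-06, edgeR). The chondroitin sulfate receptor Ptprs fell by 0.20, the Nogo receptor Rtn4r by 0.25, its homologues Rtn4rl1 and Rtn4rl2 by 0.36 and 0.43, and the integrin Itga8 by 0.30 on the log2 scale. Within single housings fewer genes of these lists passed. In SC 0 of 20 genes of chain synthesis, 3 of 20 other proteoglycans, 3 of 20 proteases and inhibitors and 4 of 16 receptors and ligands were lower. In EE the counts were 1 of 20, 0 of 20, 4 of 19 and 4 of 17, and Mmp15, at -0.46 in EE, was at -0.10 in SC. Over all genes 4.02% were called as lower in SC and 3.53% in EE. In the hyaluronan list none of 12 genes was called in SC. In EE 1 of its 13 genes, Has1, was higher, where 1.03% of all genes were. Whether the lists differ between housings was not tested. Nptx2 was also the 1 matrix list gene called when housing and interaction were tested together (adjusted p = 0.0197, edgeR), with 0.70 on the log2 scale as its change with EE in control mice.

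**Figure D5:**
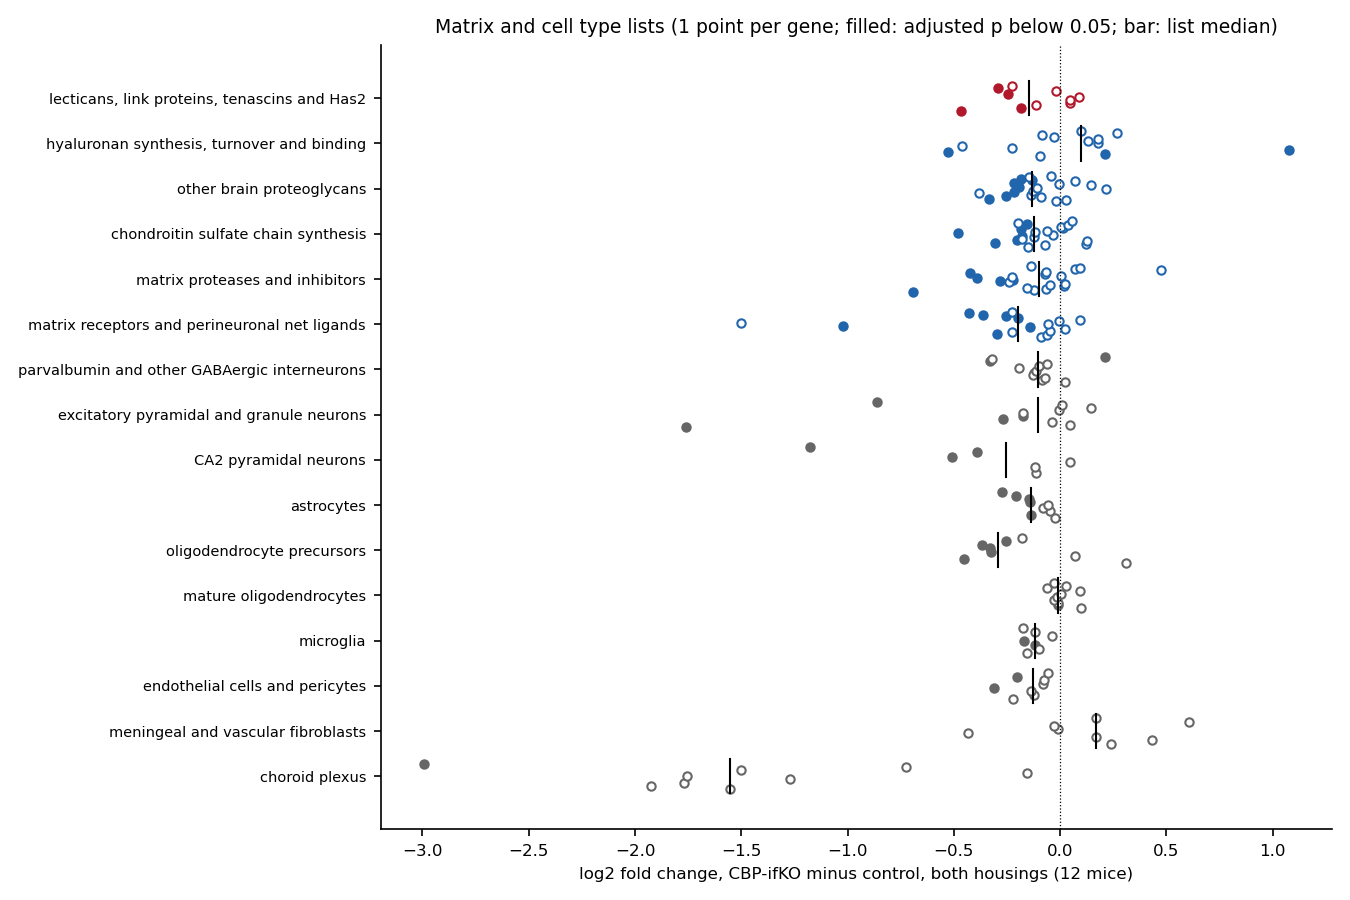
Log2 fold change between CBP-ifKOs and control mice over both housings (12 mice) for every tested gene of each list, 1 point per gene, filled where the adjusted p was below 0.05, with a bar at the list median; red marks the 10 genes described here, blue the other matrix lists and grey the cell type markers. The median of the 10 genes is -0.15, and of the 5 blue lists the hyaluronan list has its median, 0.10, above 0; the marker Otx2 appears in 2 lists.

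Markers of the cells that make these genes moved with genotype as well, and their part in the result was not tested. The same shares of all genes, 10.3% lower and 6.64% higher, are the background of these counts. Of 8 markers of oligodendrocyte precursors, which express Vcan, Tnr, Bcan and Ncan, 5 were lower in CBP-ifKOs (Olig1, Gpr17, C1ql1, Olig2 and Pdgfra), and their summed level was 235.7 to 259.0 CPM in SC controls and 227.1 to 258.0 CPM in EE controls against 193.0 to 198.2 and 208.7 to 214.4 CPM in CBP-ifKOs. Of 9 astrocyte markers 5 were lower (Sox9, Slc1a3, S100b, Aldoc and Slc1a2), and the sum was 5103 to 5752 CPM in SC controls and 5118 to 5465 CPM in EE controls against 4885 to 5088 and 4598 to 4718 CPM. Slc1a2 alone had 2841 CPM on average in control mice and so weighs heavily on this sum. Within single housings, 4 of 8 precursor and 0 of 9 astrocyte markers were lower in SC, where 4.02% of all genes were. In EE the counts were 1 of 8 and 0 of 9, against 3.53% of all genes. The summed levels of both lists did not overlap between genotypes, and neither did those of the interneuron and CA2 markers below. Of single genes, 5.35% separated as lower over both housings, and the share among such sums was not computed. Of 10 markers of mature oligodendrocytes none passed, and their sums overlapped, as did the values of Hapln2.

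The counts of called interneuron markers, which bear on nets, were close to those shares. Of 12 markers of GABAergic interneurons 2 were lower (Sst and Kcnc2) and 1 higher (Vip), and the sum was 1352 to 1447 CPM in the 6 control mice and 1257 to 1312 CPM in the 6 CBP-ifKOs. Pvalb itself did not pass, with 30.2 ± 4.24 CPM in SC controls and 27.4 ± 2.01 CPM in SC-housed CBP-ifKOs and 33.6 ± 3.20 and 32.4 ± 4.74 CPM in EE (SD, n = 3 per group). Of 6 markers of CA2 pyramidal neurons 3 were lower (Rgs14, Pcp4 and Ntf3), and their sum was 190.1 to 209.7 CPM in control mice and 115.3 to 133.2 CPM in CBP-ifKOs. Rgs14 made up most of that difference, at 110.6 ± 4.94 and 119.7 ± 5.57 CPM in SC and EE controls against 51.5 ± 2.83 and 50.4 ± 5.10 CPM in CBP-ifKOs (SD, n = 3 per group), while Amigo2, Cacng5 and Map3k15 did not pass (-0.12, -0.12 and 0.05 on the log2 scale). Of 10 markers of excitatory neurons, in which Crebbp was recombined, 4 were lower (C1ql2, Wfs1, Neurod6 and Grik4). Camk2a lay at 3668 to 4347 CPM and Slc17a7 at 1141 to 1360 CPM over the 12 mice. CBP-ifKOs also carry the transgene of the Cre driver, which per the paper includes Arsi, a gene beside the Camk2a promoter. Whether the transgene adds to the Camk2a counts was not tested. For the remaining lists 2 of 7 microglial markers, 2 of 8 endothelial and pericyte markers, 0 of 8 fibroblast markers and 1 of 9 choroid plexus markers were lower and none was higher over both housings. The fibroblast list had a median of -0.35 in SC and 0.63 in EE, where Col1a1 was higher (0.72, adjusted p = 0.0393, edgeR). The summed level of this list in EE was 101.2 to 109.9 CPM in control mice against 77.2, 91.5 and 177.8 CPM in the CBP-ifKOs. The sum was thus raised in a single CBP-ifKO and below the control range in the others.

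Genes whose level followed a given matrix gene over the 12 mice were sought among the 18251 genes tested, as a description of likeness that includes the differences between groups. Closest to Acan were Iyd (Pearson r = 0.96, Spearman rho = 0.95), Gpnmb (r = 0.93, rho = 0.87) and Hspb3 (r = 0.91, rho = 0.91). Hspb3 averaged only 0.38 CPM. Closest to Hapln2 were Ttyh2 (r = 0.87, rho = 0.86), Arl4c (r = 0.86, rho = 0.85) and Tmem63a (r = 0.85, rho = 0.82), none of which was among the oligodendrocyte markers of the lists. Tnc had as its nearest genes Gm44109, Gm17641 and Gm17080 (r = 0.87, 0.86 and 0.84), which are unnamed gene models below 1 CPM on average.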

How the data were processed

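Hippocampal RNA of 12 mice was sequenced as 50 bp single-end reads, each mouse in 2 runs merged before counting. Per the labels and methods, the authors trimmed reads with Trim Galore 0.6.4, aligned them with STAR 2.6.1 to mm10 (GRCm38), dropped alignments of mapping quality 10 or less and deposited raw, unnormalized counts over the exons of each gene (Ensembl release 99). Whether counting was strand specific is not given in the sources used here.

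Symbols and positions came from GENCODE (55230 of 55471 genes matched). The tests used edgeR 4.0.16 (R 4.3.3), after its expression filter and TMM, as quasi-likelihood F tests, with Benjamini-Hochberg adjusted p-values over all genes tested (threshold 0.05, no fold threshold). Genotypes were compared in the 6 mice of each housing and, with housing and the interaction, in all 12 mice with 1 coefficient per group. A floor of 3 counts was 0.0801 to 0.112 CPM, which covers counting error only. Nothing gives the relation between mice of a group beyond their being separate animals. The members and all lists were chosen with earlier results of these data known. Genes were named by rule: all members, Crebbp, per matrix list and comparison up to 6 called genes by p, the 3 most alike genes for Acan, Hapln2 and Tnc, and cell type markers. Promoter windows were RefSeq's on GRCm38.p6. The procedure was tested on simulated data. Alternatives were DESeq2 1.42.0, its size factors, 2 other filters, halved or thinned counts, a replicate block, other sets of mice and leaving out each mouse.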

Additional observations from a re-analysis of the deposited data

How the results depend on the processing

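Over both housings, Ncan, Bcan, Acan and Tnr were called with every alternative that used all 12 mice, and 3 to 5 of the 10 matrix genes were called when single mice were left out. Without both control mice numbered 2, a setting chosen after seeing the data, Acan was lost and 3 were called. In SC, where 1 of the 10 and 968 genes were called, leaving out single mice gave 0 to 2 of the 10 and 399 to 1908 genes, DESeq2 gave 2, no filter on low counts 3 and 1512 genes, the halved and thinned counts 0, the 12-mouse fit 0, and the fit without both control mice numbered 2 gave 2 and 1908 genes. In EE, where 0 of the 10 and 805 genes were called, leaving out single mice gave 0 to 1 and 285 to 1016 genes, DESeq2 2 and 1211 genes, no filter 3 and 1677 genes, the 12-mouse fit 1 and 1293 genes, and the fit without both control mice numbered 2 gave 1. The cause of these shifts was not tested.

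None of the 10 genes was called with housing or in the interaction under any alternative, while counts over all genes moved. With housing in control mice, where 0 genes were called, 13 were called by DESeq2, 145 without a filter, 1 in halved and thinned counts, 1 in the fit of 6 mice, 1 without both control mice numbered 2 and 0 to 5 without single mice. With housing in CBP-ifKOs, instead of 2 genes, 46 were called by DESeq2, 247 without a filter, 0 in halved counts, 21 in the fit of 6 mice, 18 without both control mice numbered 2 and 0 to 10 without single mice. In the interaction 110 genes were called without a filter. In the joint test, instead of 13 genes, 83 were called by DESeq2, 409 without a filter, 20 without both control mice numbered 2 and 0 to 16 without single mice.

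Deviations of samples with the same replicate number had correlations of both signs between genotypes in SC (-0.05 to 0.10) and between housings in CBP-ifKOs (-0.05 to 0.09). The correlations were all positive between genotypes in EE (0.03 to 0.12) and between housings in control mice (0.03 to 0.30). Samples with other numbers had mean correlations of -0.05 between genotypes in EE and -0.09 between housings in control mice. In SC that mean was -0.02, and in CBP-ifKOs 0.0006. Because the signs differed between pairs of groups, these values do not settle whether the numbers pair the mice. A replicate block gave 1 of the 10 genes in SC, 2 in EE (Ncan and Tnr) and 5 over both housings (Vcan added, adjusted p = 0.0164, edgeR), with 17 genes for housing in CBP-ifKOs and 22 in the joint test.

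Of 1106 alternative values for estimates of the 10 genes, 90 changed sign, and all of these were of estimates that were not called. Among the estimates printed in the text, in SC this was Hapln1 (0.0047 in halved and thinned counts, 0.11 without both control mice numbered 2, -0.071 to 0.11 without single mice). Over both housings these were Hapln1 (0.025 without both control mice numbered 2), Tnc (0.045 in halved and thinned counts, -0.095 to 0.040 without single mice), Hapln2 (-0.0097 to 0.14 without single mice) and Has2 (-0.21 to 0.26 without single mice). With housing in control mice they were Bcan (0.017 without both control mice numbered 2, -0.056 to 0.027 without single mice) and Ncan (-0.0064 and -0.033 to 0.043 in the same settings). Without single mice, housing in CBP-ifKOs ranged from -0.093 to 0.34 for Acan and from -0.043 to 0.19 for Tnc, and the interaction from -0.40 to 0.029 for Acan and from -0.078 to 0.056 for Ncan, which was 0.0096 without both control mice numbered 2. Among estimates not printed in the text, housing in control mice also changed sign for Hapln1 (-0.11), Hapln2 (0.086), Hapln4 (0.028) and Tnr (-0.11) without single mice. Depth limits Has2 most, at 4 to 20 counts.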
